A study of Rattus norvegicus with 12 samples.

Results

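The genes described are 8 neurotrophic factors and receptors: the ligands Bdnf, Ntf3 and Cntf, the neurotrophin receptors Ntrk2 and Ntrk3, and Gfra1, Gfra2 and Ret, which form the receptors of the GDNF family. They were taken by name, with every probe set (a group of short probes against 1 transcript region) whose only gene symbol in the platform annotation was a listed name. This gave 8 of 14217 gene symbols and 17 of 31099 probe sets: 5 for Ntrk2, 3 for Ret, 2 each for Gfra1, Gfra2 and Bdnf, and 1 each for Cntf, Ntf3 and Ntrk3. Messenger RNA was measured in sciatic nerve, spinal cord and cerebellum of young male Wistar rats. One group of each tissue came from rats given acrylamide at 30 mg/kg per day by oral gavage for 21 days, and the other from rats given saline, which a further label calls solvent. Acrylamide, a vinyl monomer, binds thiol groups and is toxic to the endings of long axons. Every one of the 6 groups had 2 arrays, with tissue of 2 rats pooled for an array, so errors describe the spread between pools. The labels do not say if a rat gave more than 1 tissue. The age at the start was 25 days in the sample labels and 3 weeks in the series text, and the labels do not settle how long after the last dose the tissues were taken.

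Neurotrophins are secreted growth factors that bind Trk receptor tyrosine kinases: BDNF binds TrkB, the product of Ntrk2, and neurotrophin 3, the product of Ntf3, binds chiefly TrkC, the product of Ntrk3. Ligands of the GDNF family bind a GFRα protein anchored to the outer face of the cell membrane, GFRα1 for GDNF and GFRα2 for neurturin. The pair then engages the kinase RET. CNTF, a cytokine made in abundance by myelinating Schwann cells and also by astrocytes, acts through CNTFRα, LIFR and gp130 and is known for keeping motor neurons alive. Ntrk2 is transcribed into a form with the kinase domain and into truncated forms without it, the truncated ones being typical of astrocytes and other glia. The files used here do not say which form a probe set reads.

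Promoter windows, from 250 bases before to 50 bases after an annotated start, were found in RefSeq (build GRCr8) for 5 of the 8 genes, in 12 entries. The windows of 4 genes are printed because they belong to the opposite tissue patterns described next: Cntf (chr1:219314486-219314785, minus strand) and Gfra1 (chr1:267555762-267556061, minus strand) had their highest signal in the nerve, Bdnf (its 4th listed start, chr3:116637608-116637907, plus strand) had its highest in the cerebellum, and Ret (chr4:153040507-153040806, minus strand) had its lowest in the nerve. Capitals mark 4 motifs searched for on both strands, chosen with the levels known: the SOX family cores ACAATG and ACAAAG, the CGTCA core of a CRE and the GC box GGGCGG.
Cntf: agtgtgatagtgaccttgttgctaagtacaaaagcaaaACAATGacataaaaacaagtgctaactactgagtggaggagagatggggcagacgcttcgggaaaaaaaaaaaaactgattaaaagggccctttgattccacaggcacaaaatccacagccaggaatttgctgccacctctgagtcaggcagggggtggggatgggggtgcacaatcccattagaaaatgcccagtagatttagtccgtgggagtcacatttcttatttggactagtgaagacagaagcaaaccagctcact
Gfra1: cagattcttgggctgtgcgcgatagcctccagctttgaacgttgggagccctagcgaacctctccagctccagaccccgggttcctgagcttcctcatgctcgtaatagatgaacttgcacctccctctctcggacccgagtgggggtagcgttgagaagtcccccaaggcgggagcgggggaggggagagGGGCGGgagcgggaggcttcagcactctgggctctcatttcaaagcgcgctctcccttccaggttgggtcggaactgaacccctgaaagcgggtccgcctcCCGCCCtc
Bdnf: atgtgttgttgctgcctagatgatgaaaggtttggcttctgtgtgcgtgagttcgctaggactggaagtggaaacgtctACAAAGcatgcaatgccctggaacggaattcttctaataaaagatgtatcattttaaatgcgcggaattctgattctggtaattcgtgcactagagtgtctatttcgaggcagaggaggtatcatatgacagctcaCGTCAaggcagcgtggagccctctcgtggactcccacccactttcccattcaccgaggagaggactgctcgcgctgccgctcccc
Ret: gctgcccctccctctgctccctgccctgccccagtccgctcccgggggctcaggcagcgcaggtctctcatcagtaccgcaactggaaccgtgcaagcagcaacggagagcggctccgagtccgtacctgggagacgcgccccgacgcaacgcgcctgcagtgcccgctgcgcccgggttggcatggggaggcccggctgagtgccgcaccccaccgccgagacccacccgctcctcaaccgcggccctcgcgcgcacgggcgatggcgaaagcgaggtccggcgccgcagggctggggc
The Cntf window held 1 ACAATG, at position -212 from the start. In the Gfra1 window the GC box lay at -59 and, on the other strand, at 43. The printed Bdnf window, 1 of 6 for that gene, had ACAAAG at -171 and CGTCA at -35. No other Bdnf window held either string, and the 3rd had the GC box on the other strand, at -62 and -43. The Ret window, with 74.0% G and C, had none of the 4 strings. Of all 33469 promoter windows in the table, 13.2% held ACAATG, 18.8% ACAAAG, 21.2% CGTCA and 33.1% GGGCGG, so each match is common and describes letters only.

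Signals are in arbitrary units on a linear scale, with every array scaled to the same trimmed mean. A probe set was tested in a tissue when its average there passed a filter signal of 110. Under this filter 9 of the 17 probe sets (6 genes) were tested in the nerve, 11 (5 genes) in the cord and 15 (all 8 genes) in the cerebellum; 2 probe sets, Bdnf 1368678_at and Gfra2 1375359_at, passed in no tissue. Differences are log2 differences of (signal + 16) ± the standard error from 1 limma model over the 12 arrays, with p-values adjusted over all probe sets tested.

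The labelled tissues carried their own markers, with exceptions on 4 arrays, and every cord array also held Schwann cell and nerve sheath markers. The 4 Schwann cell markers on the array (Prx, Pmp2, Scn7a and Egr2) summed to between 56103 and 73137 in the nerve and to at most 154 in the cerebellum. In the cord they summed to between 9822 and 20392. The 5 fibroblast and nerve sheath markers summed to between 15955 and 26109 in the cord and between 2220 and 3311 in the cerebellum. The 4 motor neuron markers on the array were under the filter signal on every nerve and cerebellar array. Both nerve arrays numbered 1, however, held markers of cerebellar granule neurons: the 5 genes summed to 17% and 0.963% of the cerebellar level on acrylamide replicates 1 and 2, and to 13.1% and 1.19% on saline replicates 1 and 2. None of the 5 was at 0 on any nerve array. Purkinje cell markers, another cerebellar type, summed to 20.4% and 4.67% of the cerebellar level on the acrylamide nerve arrays and to 16.3% and 3.24% on the saline ones. In the cord, 5 skeletal muscle genes summed to 321 and 365 on the acrylamide arrays and to 33180 and 676 on saline replicates 1 and 2. In the nerve the same muscle genes summed to 1472 and 17624 on acrylamide replicates 1 and 2 and to 4393 and 571 on saline replicates 1 and 2. For some of the results named, values without the 4 arrays with exceptions are given. Values not given may also have moved.

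In saline rats, by the brightest probe set of each gene, Cntf, Gfra1 and Gfra2 were highest in the nerve, Ntrk2 in the cord, and Bdnf and Ntrk3 in the cerebellum, while Ret was lowest in the nerve and Ntf3 in the cord. A probe set entered a contrast of 2 tissues when it passed the filter in at least 1 of them. At an adjusted p of 0.05 and a difference of at least 2-fold, nerve and cerebellum differed for 10 of 15 probe sets tested (4 higher and 6 lower in the nerve), beside 38.4% of all probe sets tested, 17.7% higher and 20.6% lower. Nerve and cord differed for 8 of 12 (2 higher and 6 lower in the nerve), beside 26.1% of all probe sets, 10.6% higher and 15.5% lower. Cord and cerebellum differed for 8 of 15 (5 higher and 3 lower in the cord), beside 21.6%, 12.0% higher and 9.54% lower. Median differences of the tested members were -0.88, -0.95 and 0.47, against -0.14, 0.04 and -0.06 over all probe sets. Centring the arrays on their medians moved the nerve's all-probe-set medians up, to 0.05 against cerebellum and 0.22 against cord, and the share of calls that were higher in nerve than in cord to 51.8%, beside 40.6% as scaled by the authors. A probe set that passed only through the tissue where it is high was bound to differ, so these counts and medians support nothing by themselves. Of the 6 probe sets lower in nerve than in cerebellum, 5 were under the filter in the nerve: those of Bdnf and Ntrk3, Ntrk2 1368972_at and 1370652_at, and Ret 1388208_a_at. Among probe sets that passed in both tissues, nerve and cerebellum differed for 5 of 9 (4 higher and 1 lower in the nerve), beside 29.0%, 14.2% higher and 14.8% lower. Nerve and cord then differed for 4 of 8 (1 higher and 3 lower in the nerve), beside 19.3%, 9.69% higher and 9.64% lower, and cord and cerebellum for 5 of 11 (5 higher and 0 lower in the cord), beside 16.5%, 8.82% higher and 7.66% lower. Over the probe sets that passed in both tissues, the members' median differences were 0.15, -0.10 and 0.78 in the same order. Those of all such probe sets were -0.10, 0.08 and -0.06. Signals under the filter are given for description, and where they enter a difference its size is not well measured. In bulk tissue, fewer cells of a type and less RNA per cell cannot be told apart.

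**Figure D1:**
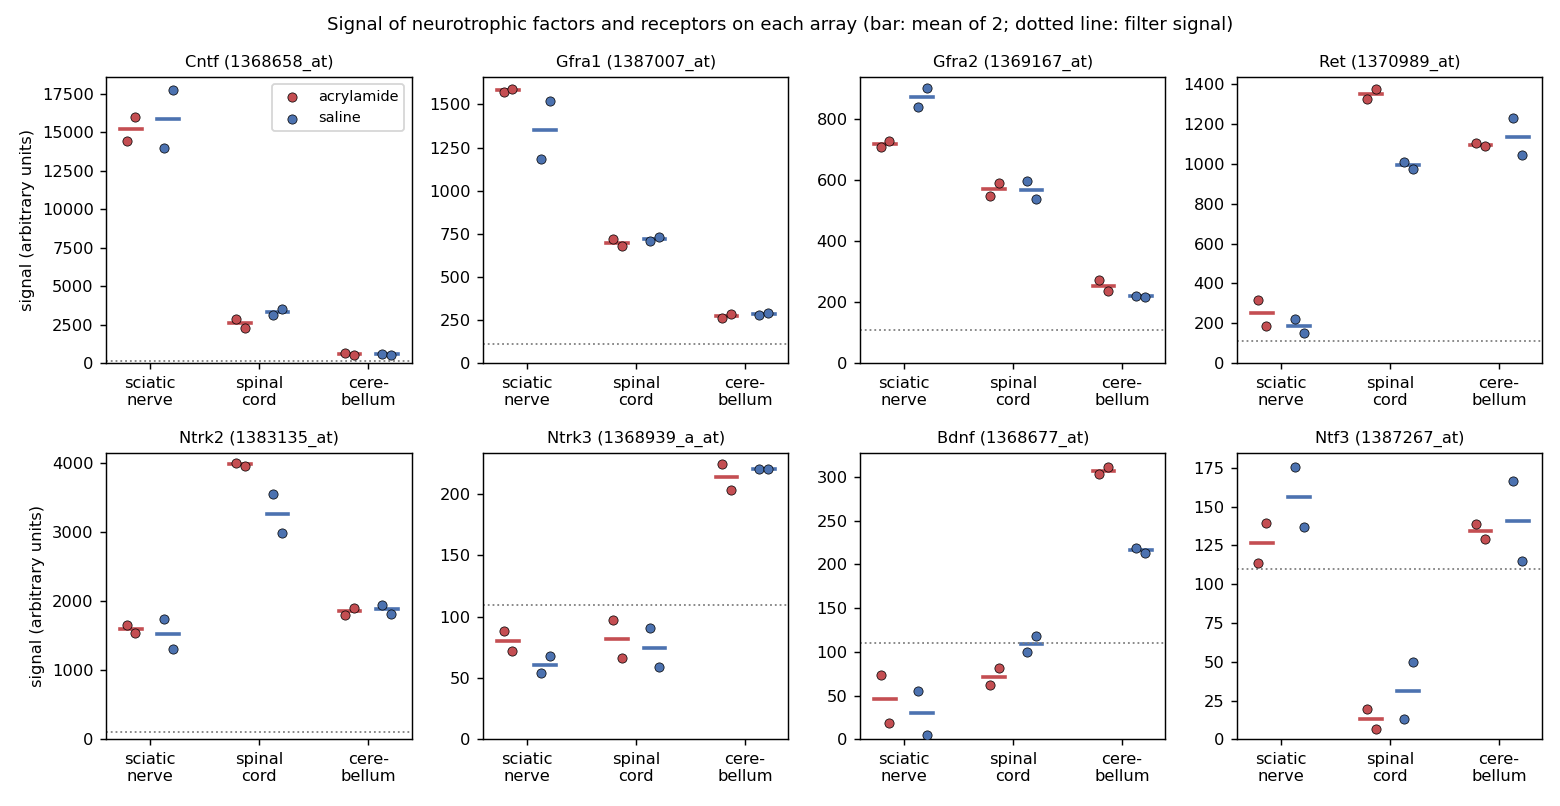
Signal (arbitrary units, linear axes from 0) of the brightest probe set of each gene on each of the 12 arrays, acrylamide beside saline within each tissue; points are arrays, bars are means of 2 and the dotted line is the filter signal of 110. Cntf, Gfra1 and Gfra2 step down from nerve to cord to cerebellum, Ret is low in the nerve, Ntrk2 peaks in the cord, Bdnf and Ntrk3 are highest in the cerebellum, and Ntf3 is lowest in the cord.

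Cntf had the largest tissue difference of the members' probe sets tested. Its signals were 14448 and 15984 in acrylamide nerves and 13969 and 17723 in saline nerves, 2859 and 2303 in acrylamide cords and 3149.6 and 3511 in saline cords, and 623 and 531 in acrylamide cerebella and 619 and 556 in saline cerebella. No array of a tissue overlapped with any array of another. The saline nerve exceeded saline cord by 2.24 ± 0.15 (4.71-fold, adjusted p = 5.5e-06) and saline cerebellum by 4.71 ± 0.15 (26.1-fold, adjusted p = 4.0e-08), and saline cord exceeded cerebellum by 2.47 ± 0.15 (5.54-fold, adjusted p = 3.8e-06). Without saline cord replicate 1 the differences from cord were 2.16 and 2.55. Saline nerve exceeded cord by 2.41 and cerebellum by 4.88 without the nerve arrays numbered 1. The Schwann cell markers stood in the same order, with sums of 56103 and 73137 in saline nerve, 16693 and 20392 in saline cord and 144 and 112 in saline cerebellum; their part in the Cntf order was not tested. In the cerebellum, where all 4 of these markers were under the filter signal on every array, Cntf still read from 531 to 623.

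The neurotrophin ligands were dim. Bdnf (1368677_at) read 73.4 and 18.8 in acrylamide nerves and 54.9 and 5.06 in saline nerves, 61.8 and 81.9 in acrylamide cords and 99.6 and 119 in saline cords, and 303 and 312 in acrylamide cerebella and 219 and 213 in saline cerebella. All 4 cerebellar arrays were above all others. The probe set passed the filter only through the cerebellum, where it is high, and was bound to differ. With the nerve taken at the filter signal, saline cerebellum was 1.84-fold brighter. The log2 difference on the nerve signals as deposited was -2.59 ± 0.55, and it ranged from -3.46 to -1.71 leaving out 1 array, -1.71 being the value without saline nerve replicate 2. Without the nerve arrays numbered 1, which carried granule neuron markers and the higher Bdnf signals, it was -3.46 ± 0.25. Saline cord and cerebellum did not pass the test (-0.90 ± 0.55, adjusted p = 0.20). With those tissues fitted alone the standard error was 0.18 and limma's adjusted p 0.0017, still under 2-fold. With both treatments averaged the difference was -1.39 (limma's adjusted p = 0.011), past 2-fold. The other Bdnf probe set, 1368678_at, was under the filter in every tissue, with 102 and 68.8 in acrylamide cerebella and 93.6 and 77.4 in saline cerebella, which overlap, and at most 61.3 in nerve and cord.

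Ntf3 was lowest in the cord. It read 114 and 139 in acrylamide nerves and 176 and 137 in saline nerves, 19.6 and 6.68 in acrylamide cords and 13.1 and 49.7 in saline cords, and 139 and 129 in acrylamide cerebella and 166 and 115 in saline cerebella. Every cord array lay under every nerve and cerebellar array. The cord signals lie under the filter signal, so the probe set entered these contrasts through the other tissue and was bound to be lower in cord. With the cord taken at the filter signal, saline nerve was 1.36-fold and saline cerebellum 1.23-fold brighter. On the signals as deposited the log2 differences were 1.97 ± 0.39 for nerve minus cord and -1.82 ± 0.39 for cord minus cerebellum, and 1.38 and -1.23 without saline cord replicate 1. Saline nerve and cerebellum did not differ beyond their spread (0.15, 95% interval from -0.73 to 1.02).

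The co-receptors of the GDNF family followed the order of Cntf. The brighter Gfra1 probe set (1387007_at) read 1574 and 1592 in acrylamide nerves and 1184 and 1521 in saline nerves, 717 and 681 in acrylamide cords and 706 and 732 in saline cords, and 261 and 283 in acrylamide cerebella and 282 and 293 in saline cerebella. Nerve, cord and cerebellum did not overlap. Saline nerve exceeded cerebellum by 2.16 ± 0.12 (4.48-fold, adjusted p = 7.2e-07) and cord by 0.89 ± 0.12 (1.85-fold, adjusted p = 0.00025), which is under the 2-fold limit, and cord exceeded cerebellum by 1.28 ± 0.12 (adjusted p = 4.2e-05). The other Gfra1 probe set, 1367954_at, gave close values for the same steps, 2.09, 0.87 and 1.22. Without the nerve arrays numbered 1, the brighter set's nerve and cord difference was 1.06, past 2-fold, and without saline cord replicate 1 it was 0.86. The brighter set's nerve and cerebellum difference was 2.34 without the nerve arrays numbered 1.

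Gfra2 (1369167_at) read 710.2 and 729.9 in acrylamide nerves and 840.5 and 904 in saline nerves, 549.8 and 592 in acrylamide cords and 596 and 539.6 in saline cords, and 272 and 235 in acrylamide cerebella and 219.9 and 217 in saline cerebella. The tissues again did not overlap. Saline nerve was above cerebellum by 1.92 ± 0.11 (3.78-fold, adjusted p = 8.1e-07) and above cord by 0.61 ± 0.11 (1.52-fold, adjusted p = 0.0013), and cord was above cerebellum by 1.31 ± 0.11 (adjusted p = 2.2e-05). Without saline cord replicate 1 the differences from cord were 0.68 and 1.24. The part of Schwann cell and nerve sheath signal in the cord levels of Gfra1 and Gfra2 was not tested. The dim probe set 1375359_at ranged from 35.4 to 127 over the 12 arrays and was not tested.

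Ret, the kinase that these co-receptors share, ran the other way between nerve and cord. Its brightest probe set (1370989_at) read 316 and 188 in acrylamide nerves and 222 and 153 in saline nerves, 1327 and 1375 in acrylamide cords and 1012 and 973 in saline cords, and 1103 and 1088 in acrylamide cerebella and 1232 and 1045 in saline cerebella. All 4 nerve arrays were below all others. Saline nerve was lower than cord (-2.33 ± 0.22, 5.03-fold, adjusted p = 3.5e-05) and lower than cerebellum (-2.52 ± 0.22, 5.74-fold, adjusted p = 1.1e-05). Without the nerve arrays numbered 1, where Ret was brighter than on those numbered 2, both gaps were wider, at -2.58 and -2.77, and without saline cord replicate 1 the gap to cord was -2.30. The other 2 probe sets were under the filter in the nerve, where they were bound to be lower than in cord. With the nerve taken at the filter signal, saline cord was 2.82-fold brighter by 1371112_at and 1.63-fold by 1388208_a_at.

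The Ret probe sets did not give the same order of cord and cerebellum. By 1371112_at saline cord exceeded cerebellum by 1.24 ± 0.15 (2.36-fold, adjusted p = 0.00015), with 365 and 315 in cord and 143 and 126 in cerebellum. By 1370989_at the difference was -0.19 (95% interval from -0.70 to 0.32), and by 1388208_a_at it was 0.25 (95% interval from -0.19 to 0.69). So 1 of 3 passed the test of cord against cerebellum. By 1388208_a_at both saline cord arrays (186 and 192) still lay above both saline cerebellar arrays (154.5 and 158).

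The 5 probe sets of Ntrk2, the BDNF receptor, did not give 1 tissue order. The brightest (1383135_at) read 1659.65 and 1538 in acrylamide nerves and 1739 and 1311 in saline nerves, 3999 and 3949.9 in acrylamide cords and 3547 and 2978 in saline cords, and 1799 and 1906 in acrylamide cerebella and 1949 and 1816 in saline cerebella. The cord arrays stood above all others. Saline nerve was lower than cord (-1.10 ± 0.13, 2.14-fold, adjusted p = 0.00012) and did not pass the test against cerebellum (-0.31 ± 0.13, adjusted p = 0.059); without the nerve arrays numbered 1 the nerve and cerebellum difference was -0.52 with an adjusted p of 0.0018, still under 2-fold. Saline cord exceeded cerebellum by 0.78 ± 0.13 (1.72-fold, adjusted p = 0.0011). Without saline cord replicate 1 the nerve and cord difference was -0.97, under 2-fold, and the cord and cerebellum difference 0.66. The nerve and cord difference was -1.30 without the nerve arrays numbered 1.

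The probe set 1368972_at gave another picture of Ntrk2 in the nerve. It read 189 and 28.7 in acrylamide nerves and 107 and 75.8 in saline nerves, against 928 and 845 in acrylamide cords and 996 and 875 in saline cords, and 1144 and 1037 in acrylamide cerebella and 1087 and 1141 in saline cerebella. The nerve signals averaged under the filter, so the probe set entered the contrasts through the other tissue and was bound to be lower in nerve. With the nerve taken at the filter signal, saline cord was 7.54-fold and saline cerebellum 8.97-fold brighter. On the signals as deposited the log2 differences were -3.16 ± 0.53 and -3.41 ± 0.53, and without the nerve arrays numbered 1 they were -3.37 and -3.62. On this probe set cord and cerebellum differed by -0.25 (95% interval from -1.46 to 0.96). Of the other 3, 1370687_a_at and 1397246_at were highest in cord, as the brightest was, with saline nerve below cord by -1.40 and -0.80. These differences were -1.77 and -0.83 without the nerve arrays numbered 1. In that fit nerve and cerebellum differed by -1.30 for 1370687_a_at, beside -0.93 with all arrays. The last, 1370652_at, was brightest in the cerebellum, where it read 315 and 260.2 under acrylamide and 205 and 230.4 under saline, and was under the filter in cord and nerve. With either taken at the filter signal, saline cerebellum was 1.85-fold brighter.

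**Figure D2:**
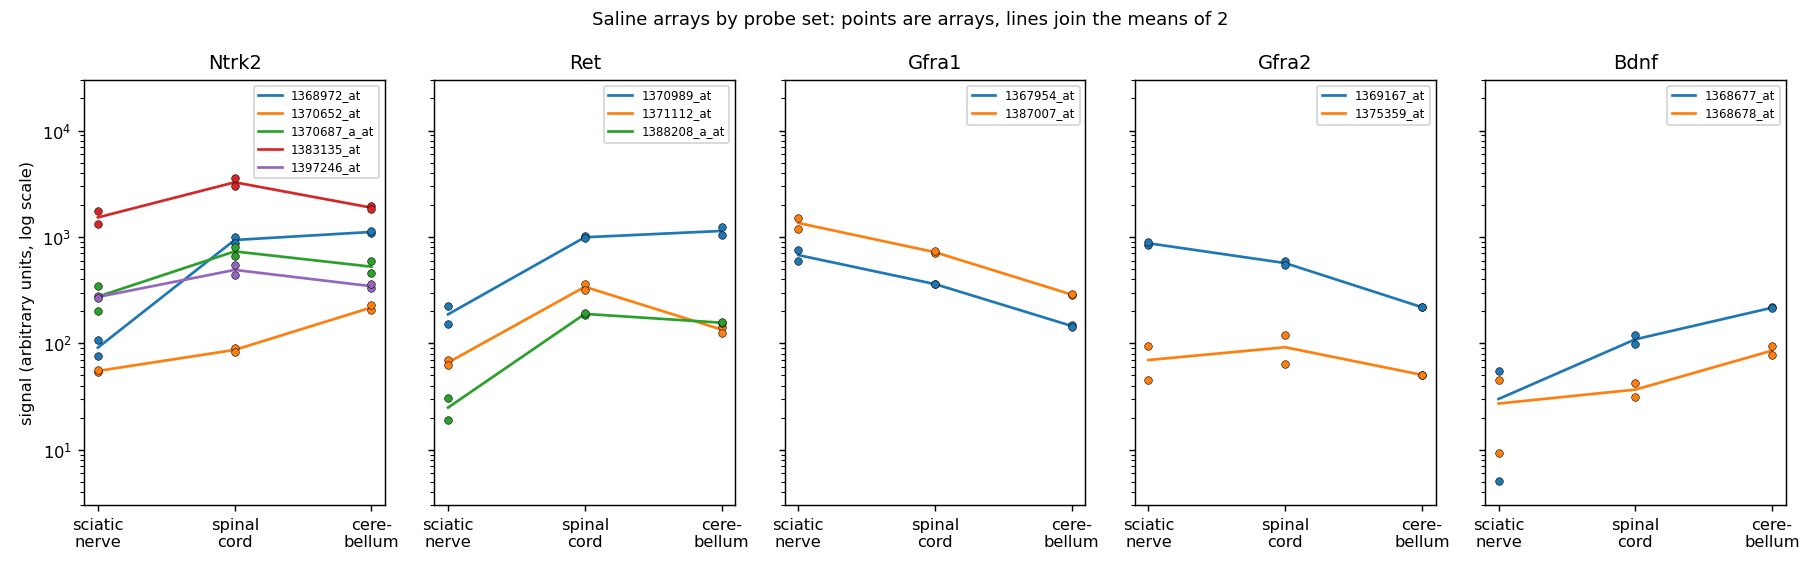
Saline arrays only: signal (arbitrary units, log axis) of every probe set of the 5 genes that have more than 1, by tissue; points are arrays and lines join the means of 2. The Gfra1 lines run in parallel, the Ret lines part between cord and cerebellum, and the Ntrk2 line of 1368972_at falls to 107 and 75.8 in the nerve while that of 1383135_at stays at 1739 and 1311.

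Ntrk3, the neurotrophin 3 receptor, passed the filter only in the cerebellum. Its probe set (1368939_a_at) read 88.1 and 72.3 in acrylamide nerves and 54.3 and 67.6 in saline nerves, 97.5 and 66.7 in acrylamide cords and 90.5 and 59.3 in saline cords, and 225 and 204 in acrylamide cerebella and 220.2 and 221 in saline cerebella. All 4 cerebellar arrays were above all others, and the nerve and cord arrays overlapped. The choice by the filter bound it to be higher in the cerebellum, and with nerve or cord taken at the filter signal, saline cerebellum was 1.88-fold brighter. On the signals as deposited the log2 differences from saline cerebellum were -1.62 ± 0.23 for nerve and -1.40 ± 0.23 for cord, and -1.65 for cord without saline cord replicate 1. Its ligand Ntf3 passed the filter in nerve and cerebellum, and neither passed it in cord.

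No member probe set passed the test of acrylamide against saline in any tissue. The adjusted p was at least 0.97 for all 9 tested in the nerve, where 0.00553% of all probe sets were called, and 1.0 for all 11 in the cord and all 15 in the cerebellum, where 0.0% were called. At an unadjusted p under 0.05, limma gave 1 of 9 members in the nerve (Gfra2, lower), 1 of 11 in the cord (Cntf, lower) and 0 of 15 in the cerebellum, beside 5.1%, 2.87% and 2.71% of all probe sets. The median acrylamide difference of the members was -0.05 in the nerve, -0.003 in the cord and -0.03 in the cerebellum, and that of all probe sets was between -0.0002 and 0.0042. Both acrylamide arrays lay above both saline arrays for 1 of 9 probe sets in the nerve, 4 of 11 in the cord and 4 of 15 in the cerebellum (13.3%, 17.7% and 17.1% of all probe sets), and below them for 2, 2 and 0 (13.0%, 15.8% and 16.6%). Counted in either direction, the groups did not overlap for 26.3%, 33.6% and 33.7% of all probe sets.

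**Figure D3:**
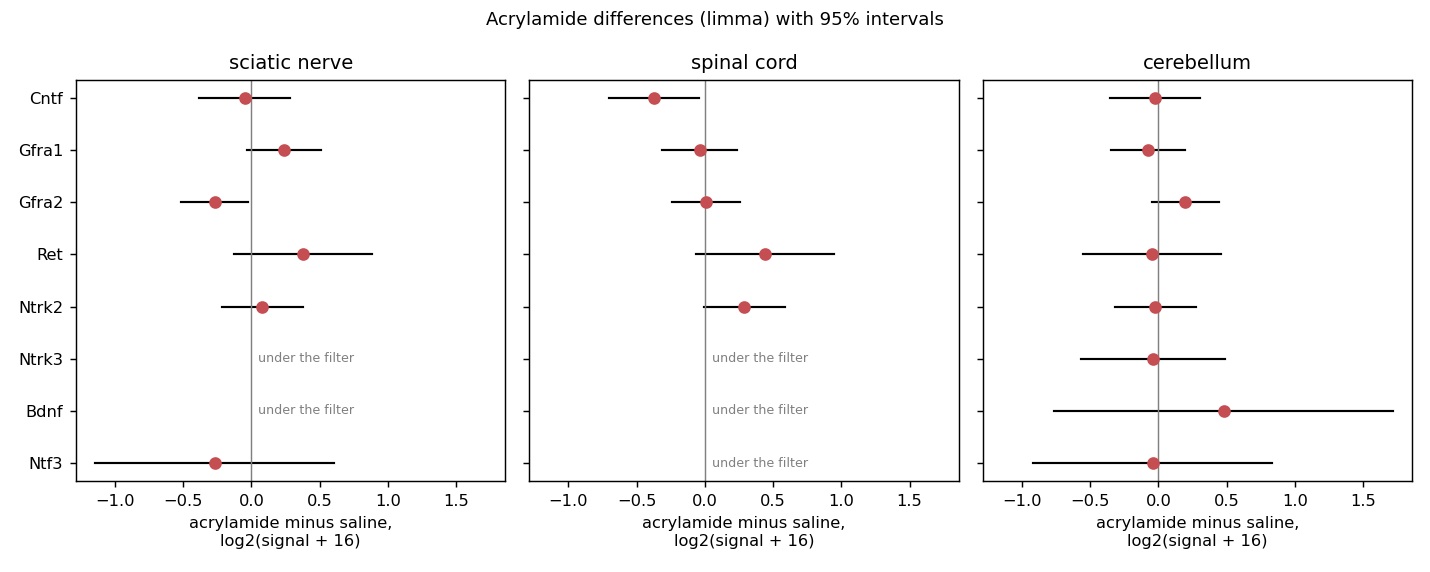
Acrylamide minus saline difference in log2(signal + 16) of each gene's brightest probe set, by tissue, with 95% intervals from limma; genes under the filter in a tissue have no point. The intervals of Cntf in the cord and Gfra2 in the nerve lie below 0 before adjustment, those of Ret and Ntrk2 in the cord reach just under 0, and the intervals of Bdnf and Ntf3 are the widest.

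Among the ligands, Cntf had signals of 2859 and 2303 in acrylamide cords and 3149.6 and 3511 in saline cords, a mean of 2581 ± 394 in acrylamide and 3330.1 ± 255 in saline cords (SD, n = 2 each). The groups did not overlap, and the difference was -0.37 ± 0.15 (1.29-fold, 95% interval from -0.70 to -0.04, limma's unadjusted p = 0.031, adjusted p = 1.0). The Schwann cell markers were also lower in the acrylamide cords, for 4 of 4 genes and with sums of 13286 and 9822, against 16693 and 20392 in saline cords. Likewise 5 of 5 fibroblast and nerve sheath markers were lower, with sums of 20292 and 15955 in acrylamide cords and 26109 and 23863 in saline cords. Their part in the Cntf values was not tested. Without saline cord replicate 1, which carried muscle genes, the difference was -0.45 with an unadjusted p of 0.041. In the nerve Cntf differed by -0.05 (95% interval from -0.38 to 0.28) and in the cerebellum by -0.03 (from -0.36 to 0.30).

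**Figure D4:**
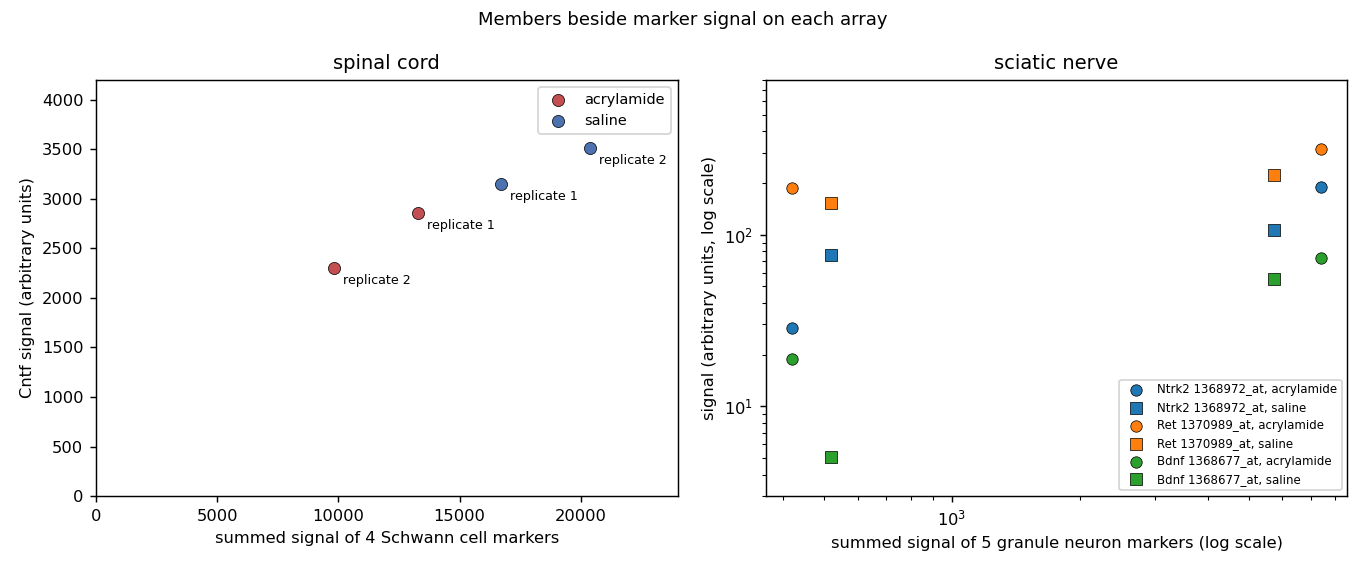
Left: Cntf signal against the summed signal of 4 Schwann cell markers on the 4 spinal cord arrays (linear axes). Right: signals of Ntrk2 1368972_at, Ret 1370989_at and Bdnf 1368677_at against the summed signal of 5 cerebellar granule neuron markers on the 4 nerve arrays (log axes). The cord arrays with less Schwann cell marker signal have less Cntf, and the nerve arrays numbered 1, with marker sums of 7398 under acrylamide and 5731 under saline, have the higher signal of all 3 members.

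Bdnf in the cerebellum read 303 and 312 under acrylamide and 219 and 213 under saline, so each pair was tight and the pairs did not overlap. The difference was 0.48 ± 0.55 (1.39-fold, unadjusted p = 0.41, adjusted p = 1.0), with a 95% interval from -0.76 to 1.72. The wide error is that of a spread shared by the 6 groups, to which the nerve arrays contribute, where Bdnf read 73.4 and 18.8 under acrylamide and 54.9 and 5.06 under saline. With the cerebellar arrays fitted alone the standard error was 0.15, the unadjusted p 0.0092 and the adjusted p 0.75; without the nerve arrays numbered 1 the unadjusted p was 0.044 and the adjusted p 0.97. Granule neuron markers, from cells that make up most cerebellar neurons, summed to 41586 and 43515 in acrylamide cerebella and 43106 and 46301 in saline cerebella and overlapped. Microglial markers summed to 1183 and 1164 in acrylamide cerebella and 804 and 872 in saline cerebella, with 3 of 5 higher and 1 lower on both acrylamide arrays. Astrocyte markers summed to 32341 and 31892 in acrylamide cerebella and 30761 and 29372 in saline cerebella. Of the 5 astrocyte markers 1 was higher and 1 lower on both acrylamide arrays. Fibroblast and nerve sheath markers summed to 3288 and 3311 in acrylamide cerebella and 3232 and 2220 in saline cerebella. The part of these markers in the Bdnf values was not tested. In the cord, where Bdnf was under the filter and was not tested, it read 61.8 and 81.9 under acrylamide and 99.6 and 119 under saline. Ntf3 differed by -0.27 ± 0.39 in the nerve and -0.04 ± 0.39 in the cerebellum.

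All 3 Ret probe sets were above saline on both acrylamide cord arrays. The brightest had 1327 and 1375 in acrylamide cords and 1012 and 973 in saline cords, a difference of 0.44 ± 0.22 (1.36-fold, 95% interval from -0.07 to 0.95, unadjusted p = 0.082, adjusted p = 1.0). For 1371112_at the values were 406 and 418 in acrylamide cords and 365 and 315 in saline cords (0.27 ± 0.15), and for 1388208_a_at 223 and 254 in acrylamide cords and 186 and 192 in saline cords (0.31 ± 0.19). These probe sets read transcripts of 1 gene in the same RNA and are not separate evidence. Fitted on the cord arrays alone, the brightest gave a standard error of 0.083, an unadjusted p of 0.0010 and an adjusted p of 0.52. Without saline cord replicate 1 the difference was 0.47. The 4 motor neuron markers on the array, from cells known to express Ret, summed to 2872 and 3210 in acrylamide cords and 3015 and 2969 in saline cords, and so overlapped. On the same cord arrays 4 of 4 Schwann cell and 5 of 5 fibroblast markers were lower under acrylamide, and 4 of 5 astrocyte and 4 of 5 microglial markers were higher; their part in the Ret values was not tested.

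In the nerve the brightest Ret probe set read 316 and 188 under acrylamide and 222 and 153 under saline, which overlap (0.38 ± 0.22, 95% interval from -0.13 to 0.88), and without the nerve arrays numbered 1 the difference was 0.27 (adjusted p = 0.35). Without acrylamide nerve replicate 2, the array with the most muscle signal, it was 0.73 (unadjusted p = 0.0048, adjusted p = 0.73). In the cerebellum its difference was -0.05 ± 0.22, while 1371112_at had 171 and 162 under acrylamide and 143 and 126 under saline (0.28 ± 0.15, unadjusted p = 0.092). The averages here and below treat the 3 tissues of a replicate number as independent, though these numbers were taken to pair. Their errors and p-values may therefore be too small. Averaged over the 3 tissues, Ret differed by 0.26 ± 0.13 (1.19-fold, unadjusted p = 0.080, adjusted p = 0.94). Without the nerve arrays numbered 1 this average was 0.22 ± 0.06 with an adjusted p of 0.14, the lowest of any member's average in that fit.

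Gfra2 had acrylamide arrays below both saline arrays in the nerve and above both in the cerebellum. In the nerve the values were 710.2 and 729.9 under acrylamide and 840.5 and 904 under saline (-0.27 ± 0.11, unadjusted p = 0.035, adjusted p = 0.97), and the difference was -0.30 without the nerve arrays numbered 1 and -0.29 without acrylamide nerve replicate 2. In the cerebellum they were 272 and 235 under acrylamide and 219.9 and 217 under saline (0.20 ± 0.11, unadjusted p = 0.10, adjusted p = 1.0). In the cord the groups overlapped (0.01, 95% interval from -0.24 to 0.25). With each tissue fitted alone, limma's unadjusted p rose to 0.082 in the nerve and 0.24 in the cerebellum. The F test of a difference between tissues gave an unadjusted p of 0.041 and an adjusted p of 1.0, and it called 0.0% of all probe sets. Fat cell markers, from tissue that can adhere to a nerve, summed to 4979 and 7303 in acrylamide nerves and 20483 and 3401 in saline nerves and overlapped. Schwann cell markers summed to 59411 and 59529 in acrylamide nerves and 56103 and 73137 in saline nerves and overlapped too. Oligodendrocyte markers summed to 13091 and 11622 in acrylamide nerves and 13661 and 14887 in saline nerves and did not overlap. Of these 5 genes 0 were lower on both acrylamide arrays. In the cerebellum the astrocyte, microglial and fibroblast sums were higher on both acrylamide arrays. The part of these markers in the Gfra2 values was not tested.

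Gfra1 was above saline on both acrylamide nerve arrays for the brighter probe set, with 1574 and 1592 under acrylamide and 1184 and 1521 under saline (0.24 ± 0.12, 95% interval from -0.04 to 0.51, adjusted p = 0.97), while the groups overlapped for the other probe set, with 731 and 954 under acrylamide and 596 and 755 under saline (0.31 ± 0.16). Without the nerve arrays numbered 1 the brighter set's difference was 0.07. In the cord the brighter set differed by -0.04, and the other by -0.15 ± 0.16, with 331 and 317 under acrylamide and 363 and 357 under saline. In the cerebellum the differences were -0.07 and 0.01.

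For Ntrk2 the brightest probe set was above saline on both acrylamide cord arrays, with 3999 and 3949.9 under acrylamide and 3547 and 2978 under saline (0.29 ± 0.13, 1.22-fold, unadjusted p = 0.057, adjusted p = 1.0). Without saline cord replicate 1 the difference was 0.41 (unadjusted p = 0.029, adjusted p = 1.0). The other 4 did not follow it: 1368972_at differed by -0.08 ± 0.53, 1370687_a_at by -0.004 ± 0.23 and 1397246_at by -0.003 ± 0.12, and 1370652_at, under the filter in cord, read 61.0 and 63.9 under acrylamide and 90.2 and 83.5 under saline. Astrocyte markers were higher in acrylamide cords for 4 of 5 genes, with sums of 37292 and 37518 under acrylamide and 33234 and 32085 under saline, and microglial markers for 4 of 5, with sums of 3260 and 2905 under acrylamide and 2452 and 2316 under saline; their part in the Ntrk2 values was not tested. In the cerebellum 1370652_at had 315 and 260.2 under acrylamide and 205 and 230.4 under saline (0.38 ± 0.28, unadjusted p = 0.21), and the other 4 differed by -0.02 to -0.06. In the nerve the brightest probe set differed by 0.08 ± 0.13, and 1397246_at, with 244 and 248 under acrylamide and 278 and 268 under saline, by -0.14 ± 0.12. These differences were 0.23 and -0.11 without the nerve arrays numbered 1. The nerve difference of 1370687_a_at was -0.12 with all arrays and 0.22 in that fit. Ntrk3 differed by -0.04 ± 0.23 in the cerebellum.

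Across the 3 tissues together, 0 of 8 member probe sets tested passed the test of the average difference, at an adjusted p of 0.94 or more, beside 0.0127% of all probe sets. At an unadjusted p under 0.05 the count was also 0, beside 5.49% of all probe sets. Leaving out the nerve arrays numbered 1 gave 457 calls over all probe sets in the nerve and 227 for the average, beside 1 and 2 with all arrays, and called 0 members in each. That fit has 1 nerve array in each group, assumed to vary like the other groups, and the 2 that remain had muscle gene sums of 17624 under acrylamide and 571 under saline. The part of muscle RNA in those calls was not tested.

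Other genes of the pathways were counted from 8 lists with 90 genes on the array. None of the 70 tested in the nerve, 73 in the cord, 65 in the cerebellum or 59 in the average was called for acrylamide by limma. At an unadjusted p under 0.05 the counts were 8 of 70, 3 of 73, 5 of 65 and 7 of 59, beside 5.1%, 2.87%, 2.71% and 5.49% of all probe sets. The counts are of genes and the shares are of probe sets, so their units differ. The median differences over these genes were 0.09 in the nerve, 0.02 in the cord and -0.004 in the cerebellum. The low-affinity neurotrophin receptor Ngfr had the lowest adjusted p of the nerve (0.70), with 389 and 352 in acrylamide nerves and 152 and 209 in saline nerves (0.99 ± 0.18). The MAP kinase phosphatase Dusp6, a feedback gene of growth factor signalling, had the lowest of the average (0.38 ± 0.07, adjusted p = 0.26), with 1533 and 1797 in acrylamide nerves and 1281 and 1053 in saline nerves. Next was Pik3r1, a regulatory subunit of PI3 kinase (1.68 ± 0.34, adjusted p = 0.36), with 621 and 1172 in acrylamide nerves and 127 and 401 in saline nerves. Its signals were 643 and 989.9 in acrylamide cords and 118 and 330.2 in saline cords, and 349.6 and 437 in acrylamide cerebella and 107 and 207 in saline cerebella, so the groups did not overlap in any tissue. Of the kinase cascades, the adaptor Shc1 averaged 0.21 ± 0.09, the GTPase Nras 0.14 ± 0.06 and the CNTF-activated transcription factor Stat3 0.15 ± 0.06, at adjusted p-values of 0.87, 0.82 and 0.84. Creb1, a transcription factor downstream of TrkB, averaged 0.19 ± 0.05 and the growth factor midkine, Mdk, 0.19 ± 0.06, at adjusted p-values of 0.64 and 0.75. The GDNF receptor Ncam1 averaged 0.11 ± 0.06, the CNTF receptor subunit Cntfr 0.11 ± 0.11 and the proneurotrophin receptor Sorcs2 0.13 ± 0.08, at adjusted p-values of 0.98 or more.

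Between tissues, 19 of 76 pathway genes tested were called higher and 13 lower in saline nerve than in saline cerebellum, beside 17.7% and 20.6% of all probe sets, some of them under the filter in 1 of the 2 tissues. Of the CNTF family outside the members, 4 of 5 genes tested were called higher in the nerve, as Cntf was, and 0 lower. The other 1 was lower without being called. Il6st, which encodes gp130, was among those called (2.63, limma's adjusted p = 1.7e-05). Only 2 genes of this list passed the filter in the cerebellum, against 5 in the nerve. Those under it in the cerebellum, among them the receptor Lifr (1.56) and the ligand Ctf1 (1.91), were bound to be higher in the nerve. Il6st read 6089 and 6230.4 in acrylamide nerves and 6115 and 8020.2 in saline nerves, against 1464 and 1282 in acrylamide cerebella and 849 and 1470.2 in saline cerebella. Of the neurotrophin receptors and sorting receptors outside the members, Sorcs2 (1.40) was higher in the nerve and Sorl1 (-3.55) lower, while Sorcs1 (3.58) was under the filter in the cerebellum and Sorcs3 (-3.23) in the nerve. Sorl1 was brighter on the nerve arrays numbered 1, with 1726 and 361 in acrylamide nerves and 1564 and 374 in saline nerves. Ncam1, an alternative GDNF receptor, was lower in the nerve (-1.22, adjusted p = 9.5e-06), as Ret was. The adaptor Shc1, used by Trk receptors and RET, was higher there (3.34, adjusted p = 2.1e-07).

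The genes whose log2 signals tracked a member most closely over the 12 arrays were found among 11293 genes. The points share 3 tissues, so these correlations describe the tissue pattern, and no p is given. Cntf was tracked most closely by Fbln2 (Pearson r = 0.999), Rcn1 (0.9987) and Col4a1 (0.9986), which encode fibulin 2, reticulocalbin 1 and a collagen IV chain. Gfra1 was followed by Gas2l3 (0.997), Sbspon and Rhobtb3, and Gfra2 by Por (0.996), Phlda3 and Acaca, of which Acaca encodes the rate-limiting enzyme of fatty acid synthesis. For Ret they were Gucy1b1 (0.995), Astn1 and Tomm70, for Ntrk2 Msrb2 (0.983), Cd83 and Sytl2, and for Ntrk3 Zfp667 (0.984), Vps13d and Zfp867. Bdnf was nearest to Nt5c (0.981), Psd3 and Car4, and Ntf3 to Tmpo (0.974), Pcgf2 and Kdm3a.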

How the data were processed

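Messenger RNA levels came from Affymetrix rat arrays hybridised with biotinylated cRNA in a single colour, per the labels. The authors deposited 1 intensity signal for each probe set, computed in GCOS 1.1 (as the submitters' processing notes record); the sources used here name no algorithm, background correction or scaling target. Each array's mean after trimming 2% at each end was between 500.124 and 500.151, and its median between 162 and 199. Precision is limited by the number of arrays.

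Groups and replicate numbers came from the labels. Of 31099 probe sets, 57 controls were left out, and 20826 had 1 gene symbol, 436 several and 9780 none; 20758 symbols were matched by gene ID to RefSeq (GRCr8). Signals were analysed as log2(signal + 16). A probe set was tested in a tissue when its mean there passed the 40th percentile of tissue means (110), which left 21347 in the fit. One limma 3.58.1 model (R 4.3.3, statmod 1.5.0) with 6 group means and an intensity trend had 6 residual and 3.14 prior degrees of freedom. Two-sided p-values were adjusted within a contrast (Benjamini-Hochberg, threshold 0.05); tissue contrasts also needed 2-fold. The script was tested on simulated data. Members, lists, motifs and tests were chosen with earlier results of these data known. Named genes were all members by their brightest probe set, the 3 most correlated genes each, and pathway genes by smallest p in the average, except that Ngfr and the pathway genes named between tissues were chosen after their values were seen. Marker lists of 13 cell types were summed per array.

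Replicate numbers were checked as pairs by correlating deviations from group means. Between tissues of a treatment the 6 correlations were between 0.12 and 0.32, so those numbers were taken to pair, from the data and not from a label; a random block for them (correlation 0.125) left the member counts at 10, 8 and 8. Alternatives tried were pseudocounts of 1 and 64, median centring, quantile normalization, a 60th percentile filter or none, no trend, robust eBayes, replicate blocks, separate fits per tissue or pair of tissues, both treatments in tissue contrasts, each array left out, and, added after the data were seen, both nerve arrays numbered 1 left out.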

Additional observations from a re-analysis of the deposited data

Results flagged for a closer look

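Gfra2 (1369167_at) had acrylamide arrays on opposite sides of the saline arrays in 2 tissues. Its acrylamide minus saline difference was -0.27 in the sciatic nerve, where both acrylamide arrays were below both saline arrays, and 0.20 in the cerebellum, where both were above. The F test of a difference between the 3 tissues, by limma, gave an unadjusted p of 0.041 and an adjusted p of 1.0, and neither tissue's own difference passed the adjusted test. Leaving out 1 array at a time, the nerve value ranged from -0.32 to -0.22 and the cerebellar value from 0.10 to 0.30. With each tissue fitted alone, limma's unadjusted p was 0.082 in the nerve and 0.24 in the cerebellum. No cause was tested.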

How the results depend on the processing

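No member was called for acrylamide under any of the alternatives run, and limma's counts of members called between tissues ranged from 6 to 11 of nerve against cerebellum, 6 to 10 of nerve against cord and 5 to 9 of cord against cerebellum. The 60th percentile filter, which tests fewer probe sets, gave 6 and 5 for nerve against cerebellum and cord against cerebellum, beside 10 and 8 as reported; leaving out 1 array at a time gave 10 to 11 and 8 in each fit, and 7 to 10 for nerve against cord. Between acrylamide and saline arrays of the same number, deviations correlated by 0.33 in the nerve, -0.09 in the cord and 0.09 in the cerebellum. The nerve value is above those between tissues, and both nerve arrays numbered 1 held cerebellar markers. The main model did not pair these arrays. The replicate block left the member counts at 0 for acrylamide, and at 10, 8 and 8 between tissues. It changed the all-probe-set counts to 0 in the nerve (1 without it) and 6 in the average (2 without it). Of 1104 alternative values of the members' brightest probe sets, 1073 kept direction and call, 23 changed sign, 3 lost a call and 5 gained one; the cause was not tested.

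No acrylamide value that changed sign was called in any alternative. Leaving out 1 array, the ranges were, for the cerebellum, Cntf -0.14 to 0.084, Ret -0.17 to 0.068, Ntrk2 -0.073 to 0.028, Ntf3 -0.28 to 0.20 and Ntrk3 -0.11 to 0.025; for the cord, Gfra2 -0.062 to 0.078; for the nerve, Cntf -0.22 to 0.12 and Ntrk2 -0.12 to 0.28; for the average, Gfra2 -0.055 to 0.011 and Gfra1 -0.019 to 0.10. Quantile normalization gave Cntf 0.020 in the nerve. Without both nerve arrays numbered 1, Ntf3 was 0.022 in the nerve, Gfra1 -0.016 in the average and Ntf3 -0.015 for nerve against cerebellum, a value that ranged from -0.090 to 0.39 leaving out 1 array. With both treatments averaged, Ret was 0.054 for cord against cerebellum, and Bdnf was -1.39, which gained a call. Near 2-fold, Ntrk2 between nerve and cord was -0.92 under median centring, -0.97 without saline cord replicate 1 and -0.90 without saline nerve replicate 2, and Gfra1 reached 1.07, 1.02 and 1.06 under median centring, both treatments and without saline nerve replicate 1.

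Over all probe sets, acrylamide calls in the nerve ranged from 0 to 24 leaving out 1 array (24 without saline replicate 1, 15 without saline replicate 2, 0 without acrylamide replicate 2) and were 457 without both nerve arrays numbered 1; in the average they were 0 to 35 (35 without saline nerve replicate 1, 0 without any 1 of 6 cord or cerebellar arrays) and 227, and in the test between tissues 0 to 1 and 61. Cerebellar counts ranged from 0 to 2 and cord counts from 0 to 1. With 2 arrays a group, the 95% intervals of the acrylamide difference still held 2-fold changes for Bdnf in the cerebellum (-0.76 to 1.72) and Ntf3 in the nerve (-1.14 to 0.60). So did those of Ntrk2 1368972_at in the cord (-1.28 to 1.13) and cerebellum (-1.24 to 1.18), and of Ntrk2 1370652_at in the cerebellum (-0.25 to 1.001). The average and the test between tissues could not be fitted tissue by tissue.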
